A study of Homo sapiens with 30 samples.

Results

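The genes of sterol and fatty acid synthesis were followed through 30 arrays of 2 human lymphoblastoid lines given low doses of gamma rays. Members were the probe sets whose platform annotation gives 1 symbol only, that symbol being 1 of 31 listed genes under its current or former name. This rule found 53 of the 22283 probe sets, for 27 of the 31 genes (of 11963 genes named on the array by this rule), and 43 of them, for 25 genes, were bright enough to be tested among 13329 probe sets. The probe sets of MVD and TM7SF2 fell below the filter on low values, those of CYP51A1 and FADS1 were left out because the annotation gives each a second symbol, and FDFT1 and STARD4 were not analysed here. The untested member probe sets had scaled signals between 0.267 and 27.9 and are not used below.

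The cells were the B lymphoblastoid lines GM15036 and GM15510, each exposed to caesium-137 at 1, 2.5, 5, 7.5 or 10 cGy, with 3 Affymetrix arrays for each line and dose. These doses carry the unit cGy in the labels and the unit Gy in the design text, with equal figures, and no source used here states how long after exposure the RNA was taken. No unirradiated group was analysed, so each dose was set against 1 cGy of the same line, and the 4 comparisons of a line share those 3 arrays. Whether the 3 arrays of a line and dose represent 3 cultures is not stated, and p-values therefore reflect array-to-array spread, which may be technical. Each line stands for 1 line only, and a difference between them belongs to these lines. In RNA of whole cultures, fewer cells of a type and less RNA per cell cannot be told apart.

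Cholesterol is built from acetyl-CoA through mevalonate and the isoprenoid farnesyl diphosphate, which is joined to squalene, closed to lanosterol and trimmed to cholesterol in the endoplasmic reticulum. When membrane sterol is low, SCAP escorts the precursor of the transcription factor SREBP-2 to the Golgi for cleavage, and the released factor, with NF-Y and Sp1 bound beside it, switches on most genes of the route; INSIG1 holds SCAP back when sterol is plentiful. SREBP-1 drives the related programme of fatty acid synthesis and desaturation. Dividing lymphoblasts use both routes for new membrane.

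The promoter windows of 4 enzymes are printed here because the results turn on them: FDPS and PMVK, which rose in GM15510, SC5D, and EBP, whose probe sets moved apart. SC5D was called lower in both lines, though each of its dose calls was lost in some alternative fits. Each window is 300 bases of the RefSeq sequence on GRCh38.p14, from 250 bases before to 50 after the annotated start, read 5′ to 3′ on the strand of the gene. The windows are chr1:155308616-155308915 on the plus strand, chr1:154936670-154936969 on the minus strand, chr11:121292521-121292820 on the plus strand (the first of the windows of SC5D) and chrX:48521558-48521857 on the plus strand. Capitals mark matches, on either strand, to the NF-Y box CCAAT and the Sp1 box GGGCGG.
FDPS: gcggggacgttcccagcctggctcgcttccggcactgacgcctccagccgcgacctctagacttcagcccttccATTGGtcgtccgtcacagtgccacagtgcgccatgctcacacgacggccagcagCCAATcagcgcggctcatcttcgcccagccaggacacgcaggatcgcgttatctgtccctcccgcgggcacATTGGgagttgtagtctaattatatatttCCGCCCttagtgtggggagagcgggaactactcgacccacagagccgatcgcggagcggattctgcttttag
PMVK: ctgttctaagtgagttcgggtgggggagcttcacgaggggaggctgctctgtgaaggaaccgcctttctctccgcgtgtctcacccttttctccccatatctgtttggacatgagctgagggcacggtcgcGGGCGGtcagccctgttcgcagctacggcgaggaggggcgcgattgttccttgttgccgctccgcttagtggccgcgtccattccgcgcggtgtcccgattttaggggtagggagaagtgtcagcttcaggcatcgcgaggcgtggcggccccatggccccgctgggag
SC5D: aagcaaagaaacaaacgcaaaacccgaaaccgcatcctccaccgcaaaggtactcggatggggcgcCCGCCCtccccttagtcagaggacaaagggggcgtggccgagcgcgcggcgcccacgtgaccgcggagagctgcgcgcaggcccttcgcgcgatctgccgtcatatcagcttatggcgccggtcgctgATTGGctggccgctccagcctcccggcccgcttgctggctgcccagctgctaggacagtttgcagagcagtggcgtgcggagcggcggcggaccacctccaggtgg
EBP: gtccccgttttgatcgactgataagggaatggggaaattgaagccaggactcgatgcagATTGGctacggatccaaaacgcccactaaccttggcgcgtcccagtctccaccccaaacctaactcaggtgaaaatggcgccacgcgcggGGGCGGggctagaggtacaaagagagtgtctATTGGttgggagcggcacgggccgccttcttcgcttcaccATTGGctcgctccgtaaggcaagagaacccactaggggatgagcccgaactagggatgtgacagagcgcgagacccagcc
The FDPS and EBP windows each held 3 NF-Y boxes and 1 Sp1 box, the SC5D window held 1 of each, and the PMVK window held 1 Sp1 box. Windows were at hand for 27 of the 31 listed genes, 36 windows in all, since some genes have several starts. An NF-Y box was present in 25 of these 36 windows (69.4%), against 34.6% of 35116 RefSeq promoter windows of the same length. The Sp1 box was present in 31 of them (86.1%), against 45.0% of all windows, and neighbouring Sp1 boxes could overlap and were each counted. The sterol regulatory element, searched as TCACNCCAC on both strands, was matched in 1 member window (2.78%), that of SREBF2, against 1.13% of all windows. The palindromic E-box TCACGTGA was matched in 1 member window (2.78%), that of INSIG1, against 0.98%. A match is a description of the letters and no evidence of binding, and windows of different genes and of 1 gene can overlap or share sequence.

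Signals are given per array after each array was scaled to the same trimmed mean of 50.9, and changes are on the log2(scaled signal + 4) scale, which understates the changes of dim probe sets. The brightness of the arrays before scaling differed up to 7.91-fold and moved with dose. Its group means ran from 69.6 at 1 cGy to 22.1 at 10 cGy in GM15036, and from 69.4 at 1 cGy through 18.7 at 2.5 cGy to 89.1 at 10 cGy in GM15510. The log2 ratio of the 3-prime to the 5-prime ACTB control probe set, a sign of RNA quality, lay between 3.75 and 5.51 over the groups. It was 3.75 at 1 cGy and 5.16 at 10 cGy in GM15510. In GM15036 its group means were 4.48, 5.51, 5.03, 5.40 and 5.20 from 1 to 10 cGy. Every 1 cGy array of GM15036 (at most 4.71) lay below every array of that line at higher doses (at least 4.97). All dose comparisons of GM15036 thus carry this shift. The same ratio for GAPDH lay between 2.27 and 2.84 over the groups. All 9 B cell markers with a probe set were tested, at summed signals of 1771 to 3595 per array, whereas 1 of 9 T and NK cell, 0 of 6 monocyte, 2 of 6 fibroblast and 1 of 3 erythroid markers with a probe set passed the filter. Among the lists of other cell types, the 1 tested T and NK cell marker rose at 10 cGy in GM15036 (log2 change 1.36) and no other marker of those lists was called, by its brightest probe set, in a dose comparison. Of 15 tested B cell marker probe sets, 0%, 0%, 20% and 13.3% were called in GM15036 from 2.5 to 10 cGy. All tested probe sets gave 0.548%, 0.143%, 3.22% and 11.7%. In GM15510 the marker shares were 40%, 26.7%, 0% and 20%, against 9.49%, 4.19%, 1.79% and 5.91%. Wherever B cell markers were called, some were higher and some lower.

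Of the 43 tested member probe sets, the number called at an adjusted p under 0.05 (limma, Benjamini-Hochberg over all 13329 tested probe sets) differed by line and dose and is set here against the share called among all tested probe sets. In GM15036, 1 member probe set was called at 2.5 cGy (2.33% of members, against 0.548% of all tested probe sets), 0 at 5 cGy (against 0.143%), 3 at 7.5 cGy (6.98% against 3.22%) and 7 at 10 cGy (16.3% against 11.7%). In GM15510 the numbers were 9 at 2.5 cGy (20.9% against 9.49%), 4 at 5 cGy (9.30% against 4.19%), 2 at 7.5 cGy (4.65% against 1.79%) and 7 at 10 cGy (16.3% against 5.91%). The differences between these shares were not tested. The count of 0 in GM15036 at 5 cGy stood beside 5 member probe sets at an unadjusted p under 0.05 in the limma fit, and limma with array weights called 1. Lower values prevailed among the calls of GM15036: 1 of 1 at 2.5 cGy (background 0.428% lower and 0.12% higher), 3 of 3 at 7.5 cGy (1.95% and 1.27%) and 6 of 7 at 10 cGy (7.35% and 4.39%), with a background of 0.09% lower and 0.0525% higher at 5 cGy. In GM15510 the calls were mixed at 2.5 cGy, with 5 probe sets higher and 4 lower (background 3.92% higher and 5.57% lower), or 3 genes higher and 4 lower by the brightest probe set; with arrays scaled to a common median 2 probe sets were higher and 11 lower. At the other doses of that line 3 of 4 calls were higher at 5 cGy (2.08% higher and 2.12% lower in the background; 2 of 4 with median scaling), 2 of 2 at 7.5 cGy (1.04% and 0.743%; none called with median scaling) and 6 of 7 at 10 cGy (3.09% and 2.82%). The single call in GM15036 at 2.5 cGy was lost without any 1 of 12 arrays. The count in GM15510 at 7.5 cGy became 1 without replicate 1 at 1 cGy or replicate 1 or 3 at 7.5 cGy. That at 10 cGy became 4 without replicate 1 at 1 cGy or replicate 3 at 10 cGy and 3 without replicate 2 at 10 cGy. A covariate of log2 brightness left 2 in GM15036 at 10 cGy and 1 in GM15510 at 2.5 cGy, and removal of the 5 dimmest arrays left 2 and 5. Shares of all tested probe sets called under these alternatives are not given here. The member counts alone do not show whether members lost more calls than other probe sets.

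**Figure D1:**
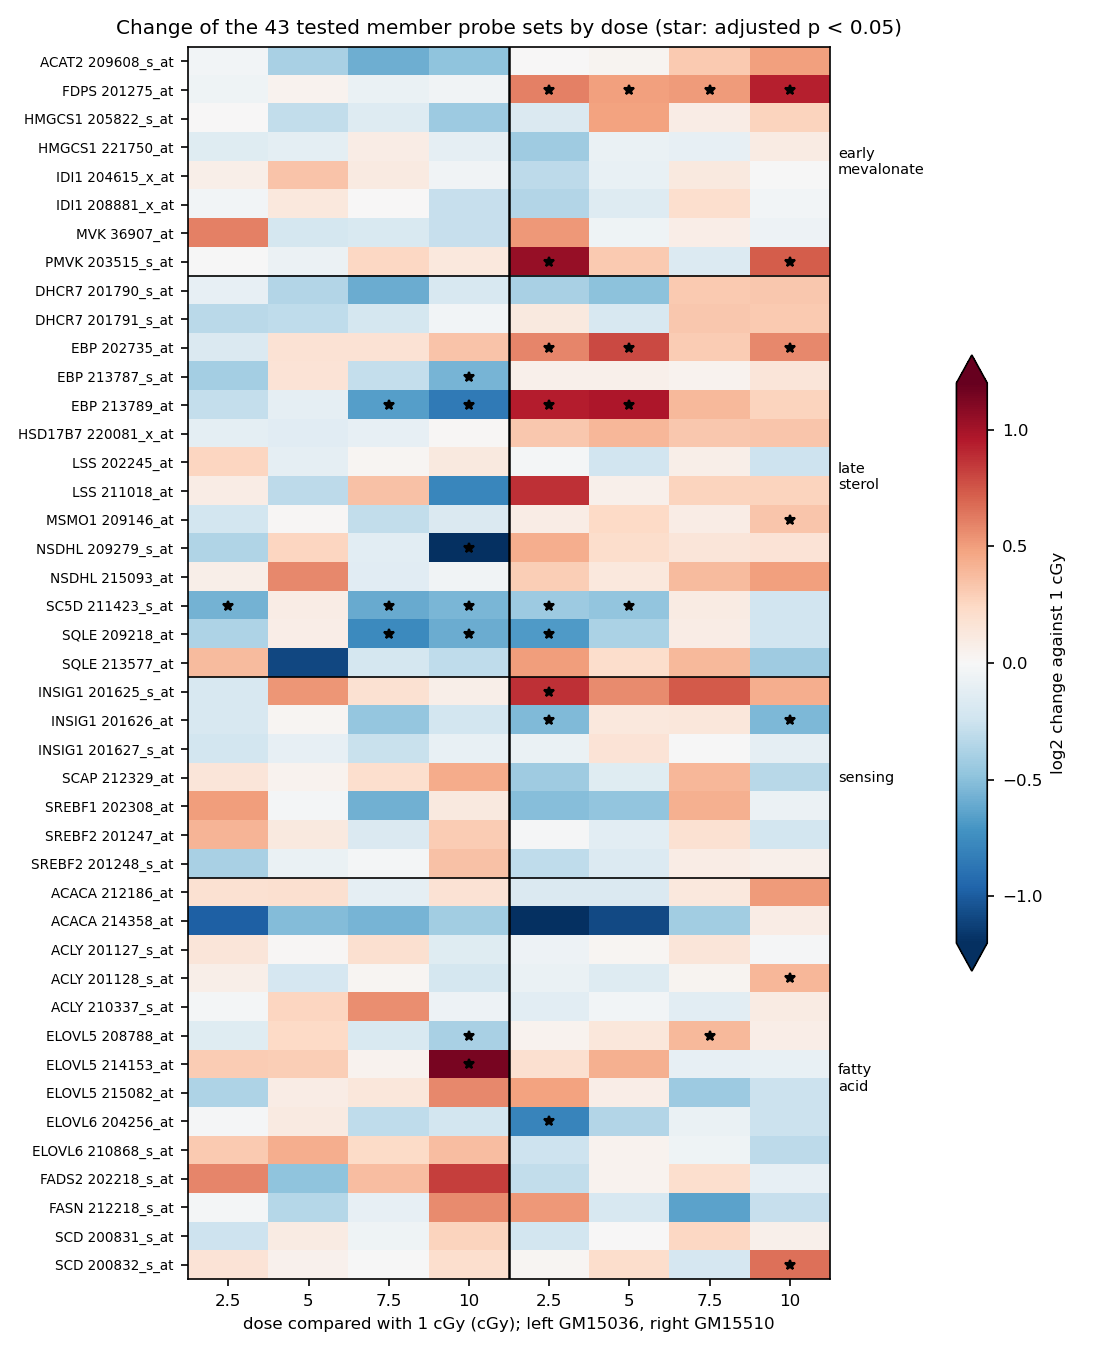
Log2 change against 1 cGy of the same line for the 43 tested member probe sets, each row 1 probe set, grouped by pathway step, with GM15036 in the 4 left columns and GM15510 in the 4 right columns. Stars mark adjusted p under 0.05; FDPS is starred at all 4 doses of GM15510 and at none of GM15036.

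The early mevalonate steps run from acetoacetyl-CoA to farnesyl diphosphate, and 6 of the 7 listed genes were tested. By the brightest probe set of each gene, 0 of 6 were called at any dose in GM15036, with median changes between -0.19 and -0.03. In GM15510, 2 of 6 rose at 2.5 cGy (median change 0.27), 1 at 5 cGy (median -0.01), 1 at 7.5 cGy (median 0.14) and 2 at 10 cGy (median 0.30), and none fell at any dose. The medians over all tested probe sets lay between -0.01 and 0.03 in the dose comparisons. Of the 8 tested probe sets of these steps, 0 were called at any dose in GM15036. All tested probe sets gave 0.548%, 0.143%, 3.22% and 11.7% from 2.5 to 10 cGy. In GM15510 the shares were 25%, 12.5%, 12.5% and 25%, against 9.49%, 4.19%, 1.79% and 5.91% of all tested probe sets. The genes that rose were FDPS and PMVK.

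FDPS (201275_at), farnesyl diphosphate synthase, makes the branch point isoprenoid from which sterols, dolichol and prenyl groups are drawn. In GM15510 its signals were 354, 361 and 406 at 1 cGy, 591, 577 and 537 at 2.5 cGy, 539, 499 and 537 at 5 cGy, 590, 492 and 524 at 7.5 cGy, and 695, 719 and 733 at 10 cGy. Every array above 1 cGy was brighter than every array at 1 cGy, and the 10 cGy arrays were brighter than all others of the line. The log2 changes were 0.60 at 2.5 cGy (adjusted p = 7.62e-05), 0.49 at 5 cGy (0.00166), 0.51 at 7.5 cGy (0.00285) and 0.93 at 10 cGy (4.31e-08), each with an SE of 0.10. The last is 1.91-fold. In GM15036 the signals were 835, 768 and 638 at 1 cGy and 729, 703 and 737 at 10 cGy, with log2 changes between -0.08 and 0.04 at the 4 doses (adjusted p of 0.777 or more). The 10 cGy arrays of GM15510 thus lay among the values of GM15036, whereas those at 1 cGy lay below all of them. The slope on dose was 0.07 log2 units per cGy in GM15510 (adjusted p = 3.11e-06) and exceeded that of GM15036 by 0.08 (SE 0.01, adjusted p = 8.6e-05). The changes at 2.5, 5 and 7.5 cGy were not called with arrays scaled to a common median (adjusted p = 0.139, 0.182 and 0.126), nor that at 2.5 cGy with brightness as a covariate (0.057). The change at 10 cGy, the slope and the slope difference kept their calls under every alternative and without each single array.

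PMVK (203515_s_at), phosphomevalonate kinase, adds the second phosphate to mevalonate. Its signals in GM15510 were 43.0, 32.6 and 34.8 at 1 cGy, 80.8, 73.9 and 84.6 at 2.5 cGy, 41.4, 40.8 and 59.4 at 5 cGy, 37.4, 30.7 and 29.2 at 7.5 cGy, and 57.0, 61.1 and 72.3 at 10 cGy. The arrays at 2.5 and 10 cGy lay above all those at 1 and 7.5 cGy, so the profile had peaks at 2.5 and 10 cGy and no slope (0.00 per cGy, adjusted p = 0.945). PMVK rose by 1.04 at 2.5 cGy (SE 0.17, adjusted p = 9.65e-05) and by 0.73 at 10 cGy (adjusted p = 0.0054), the latter not called without replicate 3 at 10 cGy (0.0523). In GM15036 the signals ran from 48.6 to 80.1 and no change was called, with log2 changes of -0.07 to 0.25. The dose profiles of PMVK differed between the lines (interaction F test of limma, adjusted p = 0.000237).

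The other early genes showed smaller differences. ACAT2, the cytosolic thiolase that makes acetoacetyl-CoA, had signals of 138, 146 and 135 at 1 cGy and 103, 105 and 87.5 at 10 cGy in GM15036. There its slope was -0.07 per cGy (adjusted p = 0.0215), not called without replicate b at 1 cGy (0.0565) or replicate c at 10 cGy (0.0776), with brightness as a covariate (0.392), with the ACTB ratio as a covariate (0.0509) or without the 5 dimmest arrays (0.0517). With either covariate or without those arrays the slope was -0.056, -0.061 and -0.080, in that order, against -0.066 in the fit of all arrays. In GM15510 ACAT2 measured 89.1, 96.0 and 118 at 1 cGy and 145, 145 and 137 at 10 cGy, and the slope difference of 0.12 was called (adjusted p = 0.00273; 0.321 with brightness as a covariate). Both probe sets of IDI1, the isopentenyl diphosphate isomerase, are of the kind whose probes can match other transcripts. Neither was called against 1 cGy, and the dose profiles of both differed between the lines (adjusted p = 0.0274 and 0.0175; 0.261 and 0.544 with brightness as a covariate). The first of these calls was also lost without any 1 of 4 arrays, replicates a and c of GM15036 and replicates 2b and 3 of GM15510 at 5 cGy (adjusted p of 0.0503 to 0.0569), and the second without the 5 dimmest arrays (0.0697). HMGCS1, the synthase that makes HMG-CoA, and MVK, mevalonate kinase, had no call in any dose comparison, with log2 changes of -0.43 to 0.10 for the brighter HMGCS1 probe set and -0.28 to 0.60 for MVK.

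**Figure D2:**
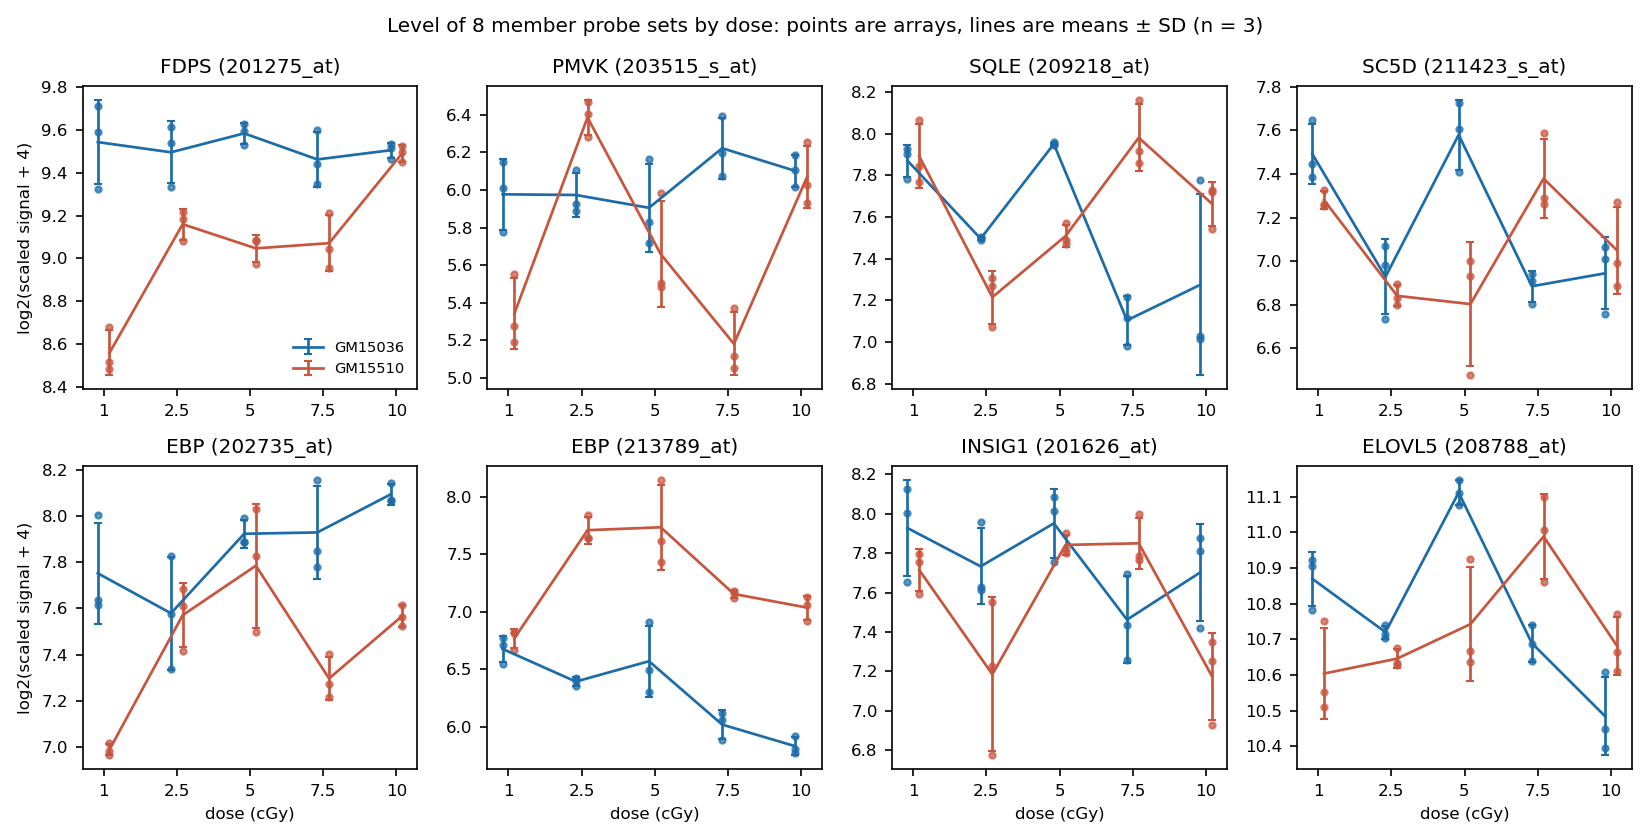
Level of 8 member probe sets, log2(scaled signal + 4), by dose in cGy; points are arrays, lines and bars are means ± SD of 3 arrays, blue for GM15036 and red for GM15510. FDPS at 10 cGy in GM15510 reached the values of GM15036, and SQLE had its lowest mean at different doses, 7.5 cGy in GM15036 against 2.5 cGy in GM15510.

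The late steps turn farnesyl diphosphate into cholesterol, and 8 of 11 listed genes were tested. By the brightest probe set, 1 of 8 fell at 2.5 cGy, 0 were called at 5 cGy, and 2 fell at both 7.5 and 10 cGy in GM15036, with median changes of -0.20, 0.05, -0.17 and -0.04. In GM15510, 1 rose and 2 fell at 2.5 cGy (median 0.10), 1 rose and 1 fell at 5 cGy (median -0.03), 0 were called at 7.5 cGy (median 0.20) and 2 rose at 10 cGy (median 0.32). Of the 14 tested probe sets of these steps, 7.14%, 0%, 21.4% and 35.7% were called in GM15036 from 2.5 to 10 cGy. All tested probe sets gave 0.548%, 0.143%, 3.22% and 11.7%. In GM15510 the shares were 28.6%, 21.4%, 0% and 14.3%, against 9.49%, 4.19%, 1.79% and 5.91%. SC5D and SQLE were called lower in both lines, and each dose call of SC5D was lost under some alternatives.

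SC5D (211423_s_at), the desaturase of the last part of the route, had signals in GM15036 of 163, 170 and 197 at 1 cGy, 102, 122 and 130 at 2.5 cGy, 191, 166 and 207 at 5 cGy, 108, 116 and 119 at 7.5 cGy and 104, 125 and 130 at 10 cGy. The arrays fell into a high set at 1 and 5 cGy and a low set at 2.5, 7.5 and 10 cGy, with no overlap. The log2 changes were -0.56 (adjusted p = 0.042), 0.09 (0.968), -0.61 (0.00766) and -0.55 (0.00569), each with an SE of 0.13. The first was lost without any 1 of 12 arrays (0.0503 to 0.234) and under 4 alternatives, the ACTB ratio as a covariate giving 0.26, and the one at 7.5 cGy without replicate c at 1 cGy (0.0624) and with brightness (0.0779) or the ACTB ratio (0.0628) as a covariate. The one at 10 cGy was lost without the 5 dimmest arrays (0.204) and with brightness as a covariate (0.186). In GM15510 the signals were 150, 157 and 148 at 1 cGy, 110, 107 and 115 at 2.5 cGy, 124, 85.0 and 118 at 5 cGy, 152, 149 and 188 at 7.5 cGy, and 123, 114 and 151 at 10 cGy. Here the arrays at 2.5 and 5 cGy lay below those at 1 and 7.5 cGy. SC5D fell by 0.44 at 2.5 cGy (adjusted p = 0.034) and by 0.48 at 5 cGy (0.0356). Both calls were lost under quantile normalization (0.129 and 0.106), with brightness as a covariate (0.467 and 0.179), under 4 and 3 further alternatives, and without any 1 of the 3 arrays at 1 cGy, the first also without any 1 array at 2.5 cGy and the second without replicate 2b at 5 cGy (0.267). The dose profiles of SC5D differed between the lines (adjusted p = 0.000135), a call kept under every alternative and without each array.

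SQLE, squalene epoxidase, carries out the first oxygen-dependent step and is a known point of flux control. By its brightest probe set, 209218_at, signals in GM15036 were 239, 235 and 216 at 1 cGy, 177, 177 and 176 at 2.5 cGy, 243, 245 and 243 at 5 cGy, 145, 122 and 135 at 7.5 cGy, and 127, 126 and 215 at 10 cGy. The 7.5 cGy arrays lay below all arrays at 1, 2.5 and 5 cGy, and at 10 cGy 2 arrays were low and 1 was close to 1 cGy. SQLE fell by 0.77 at 7.5 cGy (SE 0.13, adjusted p = 0.000712), a call kept under every alternative and without each array. It fell by 0.60 at 10 cGy (adjusted p = 0.00244), a call lost without the 5 dimmest arrays (0.781), which include both low arrays, and with brightness as a covariate (0.378). In GM15510 the signals were 226, 214 and 264 at 1 cGy, 150, 155 and 130 at 2.5 cGy, 186, 173 and 176 at 5 cGy, 283, 238 and 229 at 7.5 cGy and 207, 208 and 182 at 10 cGy. The low point was thus at 2.5 cGy, where SQLE fell by 0.68 (adjusted p = 0.001), a call lost when brightness was added to the model (0.395). The dose profiles differed between the lines (adjusted p = 1.84e-05), and this call was kept under every alternative. A second tested probe set of SQLE, with signals of 3.65 to 47.0, was called in no dose comparison.

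EBP, the sterol isomerase, was read by 3 probe sets that disagreed. The brightest, 202735_at, measured 122, 121 and 125 at 1 cGy in GM15510, 191, 167 and 202 at 2.5 cGy, 258, 223 and 177 at 5 cGy, 165, 151 and 144 at 7.5 cGy, and 192, 180 and 185 at 10 cGy. All 12 arrays above 1 cGy exceeded the 3 at 1 cGy. By this probe set EBP rose by 0.58 at 2.5 cGy (adjusted p = 0.00303), by 0.80 at 5 cGy (0.000158) and by 0.58 at 10 cGy (0.00379), whereas the change of 0.31 at 7.5 cGy was not called (0.292). The call at 2.5 cGy was lost with median scaling (0.241) and with brightness as a covariate (0.678), that at 10 cGy with the ACTB ratio as a covariate (0.277), and that at 5 cGy was kept throughout. In GM15036 this probe set had a slope of 0.05 per cGy (adjusted p = 0.00963; 0.315 with median scaling, 0.102 without the 5 dimmest arrays and 0.816 with brightness as a covariate).
The second probe set, 213789_at, rose in GM15510 from 108, 97.9 and 109 at 1 cGy to 196, 226 and 196 at 2.5 cGy and 193, 280 and 169 at 5 cGy, with log2 changes of 0.94 (adjusted p = 5.32e-05; 0.077 with brightness as a covariate) and 0.97 (7.29e-05). In GM15036 it fell from 101, 105 and 89.4 at 1 cGy to 54.9, 65.4 and 62.5 at 7.5 cGy and 50.4, 51.8 and 56.4 at 10 cGy. These are log2 changes of -0.66 (adjusted p = 0.0071; 0.0528 without replicate b at 1 cGy) and -0.85 (0.000131, kept throughout). The third, 213787_s_at, was called only in GM15036 at 10 cGy (-0.56, adjusted p = 0.0386), a call lost without replicate a or b at either 1 or 10 cGy (0.0618 to 0.24), with the replicate label as a block (0.0524) and under 4 other alternatives. The rise of EBP in GM15510 at 2.5 and 5 cGy was thus seen in 2 of its 3 probe sets, and in GM15036 at 10 cGy the brightest pointed up (0.34, adjusted p = 0.0815) while the other 2 pointed down.

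Among the other late genes, MSMO1, the sterol methyl oxidase, measured 265, 247 and 276 at 1 cGy and 354, 343 and 300 at 10 cGy in GM15510. This was a rise of 0.33 (SE 0.09, adjusted p = 0.0264), lost with median scaling (0.257), with the line fitted alone (0.0693) and without replicate 1 or 2 at either 1 or 10 cGy (0.0684 to 0.142). In GM15036 its changes of -0.29 to 0.02 were not called. The dimmer probe set of NSDHL, the sterol dehydrogenase that works beside MSMO1, measured 28.8, 20.9 and 19.5 at 1 cGy and 1.15, 1.84 and 15.9 at 10 cGy in GM15036 (log2 change -1.67, adjusted p = 0.00451). The 2 lowest values were from the 2 dimmest arrays of that group, and the call was lost without the 5 dimmest arrays (0.691) and with brightness as a covariate (0.267). The brighter NSDHL probe set, 104, 92.1 and 75.2 against 70.8, 87.9 and 105, showed no call (-0.04, adjusted p = 0.933). LSS, which closes the sterol rings, HSD17B7 and DHCR7, the reductase of the final step, were not called at any dose by any probe set, with log2 changes by the brightest probe set of -0.25 to 0.26, -0.13 to 0.40 and -0.32 to 0.33.

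**Figure D3:**
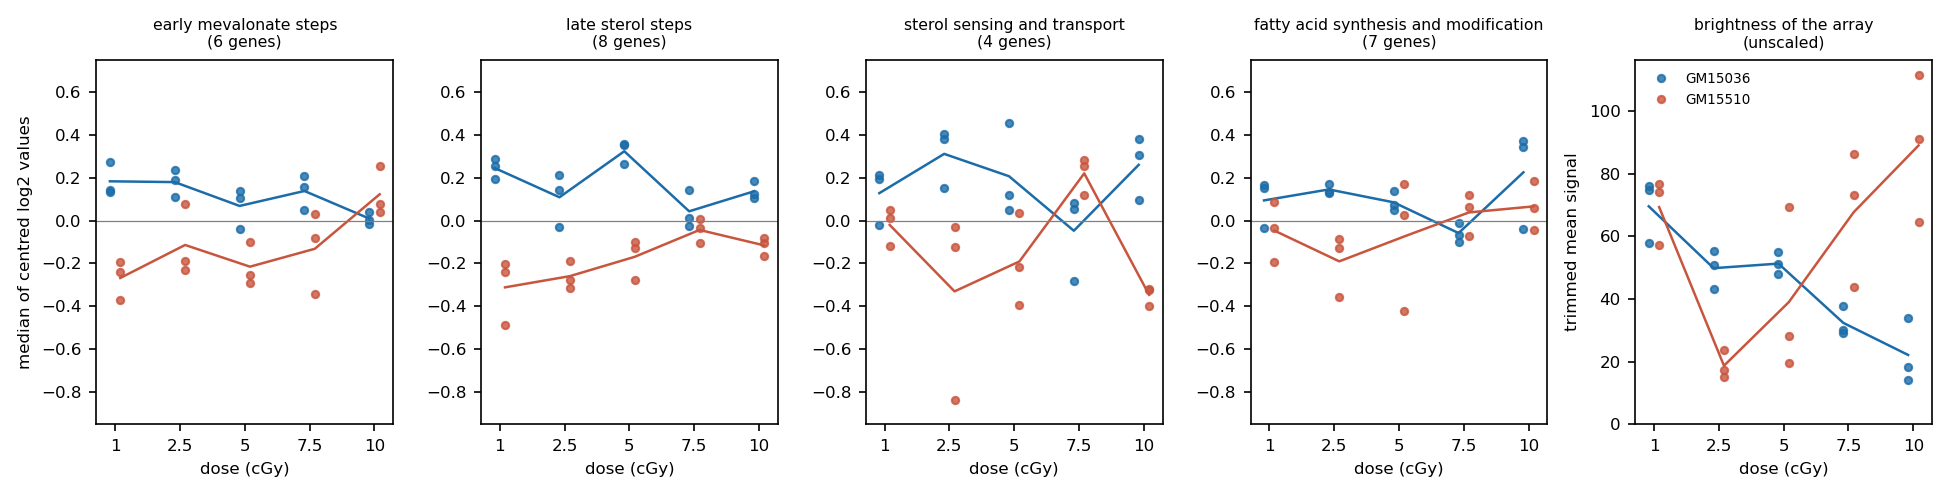
Median over the genes of each list of the log2 level centred on its mean over all 30 arrays, by dose in cGy, with the brightness of each array before scaling at the right; points are arrays and lines are means of 3. The lists of GM15036 lay above those of GM15510 at most doses, and brightness fell with dose in GM15036 and was lowest at 2.5 cGy in GM15510.

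The sensors of membrane sterol were read by 7 tested probe sets. In GM15510, 2 of them were called at 2.5 cGy (28.6%, against 9.49% of all tested probe sets). At 10 cGy 1 was called (14.3% against 5.91%), and 0 were called at 5 and 7.5 cGy (against 4.19% and 1.79%). In GM15036 0 were called at any dose, against 0.548%, 0.143%, 3.22% and 11.7% from 2.5 to 10 cGy. The differences between these shares were not tested. By the brightest probe set, 0 of 4 genes were called in GM15036 at any dose (median changes of 0.27, 0.03, -0.32 and 0.21 from 2.5 to 10 cGy). In GM15510, 1 of 4 fell at 2.5 cGy (median -0.47) and at 10 cGy (median -0.28), and 0 were called at 5 and 7.5 cGy (medians -0.14 and 0.29). The gene was INSIG1, itself a target of SREBP-2. Its brightest probe set, 201626_at, measured 212, 189 and 218 at 1 cGy in GM15510, 146, 106 and 184 at 2.5 cGy, 219, 235 and 222 at 5 cGy, 216, 252 and 214 at 7.5 cGy and 159, 149 and 118 at 10 cGy. The arrays at 2.5 and 10 cGy were below all others of the line. The falls of 0.53 (adjusted p = 0.0298) and 0.54 (0.0363) were lost without single arrays, the first without replicate 1 or 3 at 1 cGy or replicate 2 at 2.5 cGy (0.0963 to 0.225) and the second without any 1 array at 1 cGy or replicate 2 or 3 at 10 cGy (0.0534 to 0.241). Quantile normalization (0.0714), removal of the 5 dimmest arrays (0.157) and brightness as a covariate (0.69) ended the first, and median scaling (0.144), no filter (0.056) and the ACTB ratio as a covariate (0.178) the second. A dimmer probe set, 201625_s_at, went the other way at 2.5 cGy, from 16.5, 18.8 and 33.9 to 44.5, 49.1 and 38.5 (0.88, adjusted p = 0.00512; 0.0578 without replicate 1 at 1 cGy, 0.0548 with median scaling, 0.0724 without the 5 dimmest arrays and 0.203 with brightness as a covariate), and the third, 201627_s_at, showed a change of -0.08 (0.871), so the direction of INSIG1 at this dose was not settled. At 10 cGy in GM15510 the fall of INSIG1 rests on 201626_at, since neither of its other probe sets was called there. Of the 7 sensing probe sets, 1 was higher there at an unadjusted p under 0.05 in the limma fit. SREBF1, SREBF2 and SCAP were called at no dose, with log2 changes of -0.58 to 0.50, -0.22 to 0.41 for the brighter SREBF2 probe set, and -0.43 to 0.44. The dose profile of SCAP differed between the lines (adjusted p = 0.0294), a call lost without any 1 of 7 arrays (0.0524 to 0.0713), with median scaling (0.0527) and with the ACTB ratio as a covariate (0.0704).

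The fatty acid genes include ACLY, which makes cytosolic acetyl-CoA, ACACA and FASN, which build palmitate, and the desaturases and elongases SCD, FADS2, ELOVL5 and ELOVL6. By the brightest probe set, 1 of 7 tested genes fell at 10 cGy and 0 were called at the other doses in GM15036 (medians of 0.07, 0.05, -0.10 and 0.18 from 2.5 to 10 cGy). In GM15510, 1 fell at 2.5 cGy (median -0.08), 0 were called at 5 cGy (median -0.15), 1 rose at 7.5 cGy (median 0.03) and 2 rose at 10 cGy (median 0.08). Of the 14 tested probe sets of these genes, 0%, 0%, 0% and 14.3% were called in GM15036 from 2.5 to 10 cGy. All tested probe sets gave 0.548%, 0.143%, 3.22% and 11.7%. In GM15510 the shares were 7.14%, 0%, 7.14% and 14.3%, against 9.49%, 4.19%, 1.79% and 5.91%. ELOVL5, which lengthens polyunsaturated fatty acids, was called in each line. Its signals in GM15036 were 1935, 1914 and 1758 at 1 cGy, 2155, 2207 and 2265 at 5 cGy and 1394, 1344 and 1556 at 10 cGy. The groups did not overlap, and ELOVL5 fell by 0.39 at 10 cGy (SE 0.09, adjusted p = 0.00255; 0.185 without the 5 dimmest arrays), while the change of 0.24 at 5 cGy was not called (0.38). In GM15510 it went from 1497, 1719 and 1454 at 1 cGy to 2188, 1855 and 2054 at 7.5 cGy, a rise of 0.38 (adjusted p = 0.0147). This was lost under quantile normalization (0.209), median scaling (0.215), with the line fitted alone (0.0741) and without replicate 1 or 3 at either 1 or 7.5 cGy (0.0607 to 0.116). The slopes of ELOVL5 differed by 0.06 per cGy (adjusted p = 0.00128), a call kept under every alternative and without each array. A dim second probe set of ELOVL5 went the other way at 10 cGy in GM15036, from 12.6, 9.68 and 21.8 to 47.4, 34.5 and 27.8 (1.14, adjusted p = 0.00633; 0.342 with brightness as a covariate, 0.24 without the 5 dimmest arrays, 0.0594 without replicate b at 1 cGy and 0.0501 without replicate a at 10 cGy).

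SCD, the stearoyl-CoA desaturase, and ACLY rose in GM15510 at 10 cGy. The brighter SCD probe set measured 405, 453 and 273 at 1 cGy, 364, 366 and 393 at 2.5 cGy, 636, 479 and 254 at 5 cGy, 335, 304 and 325 at 7.5 cGy, and 556, 598 and 609 at 10 cGy. The groups at 1 and 10 cGy did not overlap, and the rise of 0.67 (SE 0.17, adjusted p = 0.0149) was lost with the ACTB ratio as a covariate (0.853), with the line fitted alone (0.0826) and without replicate 3 at 1 cGy (0.183) or replicate 2 (0.0527) or 3 (0.066) at 10 cGy. In GM15036 the same probe set stayed between 632 and 772 on all 15 arrays, with no call. The brightest ACLY probe set measured 380, 440 and 396 at 1 cGy and 550, 573 and 483 at 10 cGy, a rise of 0.40 (adjusted p = 0.0244), lost with median scaling (0.177), the ACTB ratio as a covariate (0.629), the line fitted alone (0.0653) and without replicate 1 or 3 at 1 cGy or replicate 1 or 2 at 10 cGy (0.0825 to 0.123). Both dimmer ACLY probe sets showed changes of -0.01 and 0.09. The dimmer tested SCD probe set (200831_s_at) was not called at 10 cGy in GM15510, nor was its unadjusted p in the limma fit under 0.05. ELOVL6, which lengthens palmitate, measured 117, 113 and 98.9 at 1 cGy and 66.2, 55.1 and 62.9 at 2.5 cGy in GM15510. It fell by 0.80 (adjusted p = 0.0134), a call lost without the 5 dimmest arrays (0.092), with brightness as a covariate (0.857) and without replicate 1 at 1 cGy (0.0604) or replicate 2 at 2.5 cGy (0.0543). ACACA, FASN and FADS2 were called at no dose in either line.

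The lines also differed in level. Averaged over the 5 doses, 16 of 43 member probe sets differed between GM15510 and GM15036, against 47.2% of all tested probe sets. Of these, 14 were lower in GM15510 (26.7% of all tested probe sets were) and 2, both of EBP, were higher (20.5%). By the brightest probe set, 11 of 25 genes were lower and 0 higher, and the median difference was -0.20, against -0.07 over all tested probe sets. Scaling to a common median left 9 member probe sets lower and 5 higher, and moved the median of all tested probe sets to 0.06. By its brighter probe set DHCR7 had a median signal of 84.9 in GM15036 and 43.1 in GM15510, a difference of -0.87 (SE 0.08, adjusted p = 1.35e-11) with no overlap between the lines. HSD17B7, read by a probe set whose probes can match other transcripts, differed by -0.87 as well (median 486 against 259). The dimmer DHCR7 probe set was not called (median 32.0 in GM15036 against 24.2 in GM15510). For the brighter SCD probe set the difference was -0.78 (adjusted p = 2.8e-10), for FDPS -0.45, for the brighter HMGCS1 probe set -0.44 and for MSMO1 -0.34. Genes of the sterol sensor were also lower in GM15510: SCAP at -0.42, SREBF2 at -0.39 by its brighter probe set, and the 3 INSIG1 probe sets at -0.33 to -0.20. The dimmer SREBF2 probe set was not called (median 31.5 in GM15036 against 30.6 in GM15510). The SREBF2 call was lost with the ACTB ratio as a covariate (adjusted p = 0.122), and those of all 3 INSIG1 probe sets and of PMVK (-0.31) with median scaling (0.0936 to 0.64). The 3 EBP probe sets again disagreed, at -0.41, 0.44 and 0.98.

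**Figure D4:**
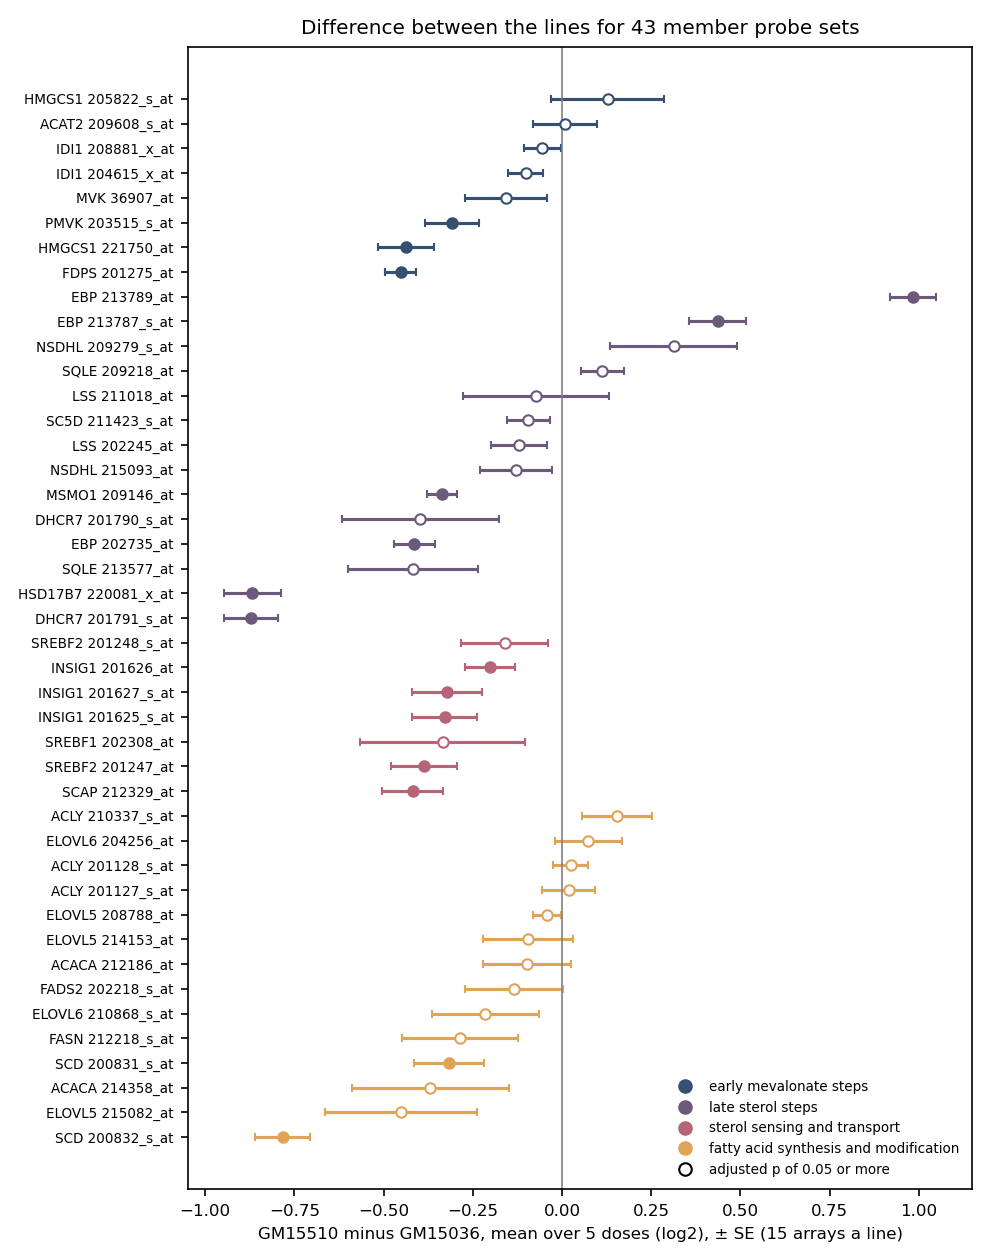
Difference between the lines for the 43 tested member probe sets, GM15510 minus GM15036, as the mean over 5 doses on the log2 scale ± SE (15 arrays a line), ordered within each list. Filled points have adjusted p under 0.05; 14 of the 16 filled points lie left of 0, and 2 EBP probe sets lie right of it.

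The dose profiles of 16 member probe sets, for 13 genes, differed between the lines in the interaction test, against 20.5% of all tested probe sets. The least stable of these calls were those of FADS2, MSMO1 and INSIG1 (201625_s_at), which stood in 12, 18 and 22 of the 30 fits that left out 1 array. The slope on dose was called for 8 member probe sets in GM15036 (2 rising and 6 falling; 13% of all tested probe sets were called, 5.23% rising and 7.77% falling) and for 2 in GM15510, both rising, FDPS and ACLY (4.62%, 2.72% rising and 1.9% falling). The slope was steeper upward in GM15510 for all 8 member probe sets called for a slope difference, against 10.8% called in either direction with 6.56% in that direction and 4.22% in the other among all tested probe sets. These were probe sets of ACAT2, FDPS, IDI1, ACLY, ELOVL5, EBP, MSMO1 and SQLE, of which those of FDPS and ELOVL5 kept the call under every alternative. That of IDI1 (adjusted p = 0.0456) stood in 10 of the 30 fits that left out 1 array (adjusted p of up to 0.126) and was lost under quantile normalization (0.0844), without a filter (0.068), without the 5 dimmest arrays (0.0904) and with brightness as a covariate (0.612). With brightness as a covariate 3 slope differences were called, and without the 5 dimmest arrays 4. The share of all tested probe sets called in those fits is not given here. The slope count of GM15036 became 5 without replicate a at 10 cGy, and that of GM15510 became 1 without replicate 1 at 1 cGy or replicate 1 or 2 at 10 cGy. The slope of ACLY in GM15510 (0.04 per cGy, adjusted p = 0.0162) was the one lost in those cases, and it was also lost without the 5 dimmest arrays (0.0891), with brightness (0.0698) or the ACTB ratio (0.227) as a covariate and with the line fitted alone (0.0515).

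A companion list of 48 other genes of sterol, isoprenoid and fatty acid metabolism was read in the same fit, with 38 genes tested. In GM15036, 1 rose and 2 fell at 2.5 cGy, 0 were called at 5 cGy, 3 fell at 7.5 cGy, and 1 rose and 6 fell at 10 cGy (median changes of -0.04, 0.11, -0.15 and -0.16). In GM15510, 3 rose and 2 fell at 2.5 cGy, 1 fell at 5 cGy, and 2 rose at both 7.5 and 10 cGy (medians of 0.01, 0.00, 0.08 and 0.02). Of the 61 tested probe sets of this list, 4.92%, 0%, 4.92% and 16.4% were called in GM15036 from 2.5 to 10 cGy. All tested probe sets gave 0.548%, 0.143%, 3.22% and 11.7%. In GM15510 the companion shares were 11.5%, 4.92%, 3.28% and 6.56%, against 9.49%, 4.19%, 1.79% and 5.91%. The differences between these shares were not tested. HSD17B12, the reductase of very long chain fatty acid elongation, measured 697, 812 and 680 at 1 cGy, 452, 490 and 544 at 2.5 cGy, 769, 753 and 724 at 5 cGy, 541, 570 and 610 at 7.5 cGy, and 486, 450 and 541 at 10 cGy in GM15036. The high arrays were those at 1 and 5 cGy, as for SC5D in this line. HSD17B12 fell by 0.56 at 2.5 cGy (adjusted p = 0.00264) and by 0.56 at 10 cGy (9.18e-05), both kept under every alternative and without each array, and by 0.34 at 7.5 cGy (0.0359), lost without replicate b at 1 cGy (0.242) or any 1 array at 7.5 cGy (0.0507 to 0.111), with median scaling (0.0566), without a filter (0.0614) and with brightness (0.102) or the ACTB ratio (0.0836) as a covariate. In GM15510 HSD17B12 rose by 0.35 at 2.5 cGy (adjusted p = 0.0139) and by 0.43 at 7.5 cGy (0.0115), and was not called at 5 or 10 cGy. Both calls were lost with median scaling (0.949 and 0.199) and without some single arrays (0.0594 to 0.0969). The first was also lost under quantile normalization (0.0539), without the 5 dimmest arrays (0.146) and with brightness as a covariate (0.425). At 10 cGy in GM15036, LIPA, the lysosomal lipase, fell by 0.51 (adjusted p = 0.000247, kept throughout). ACADM and HADHB, enzymes of mitochondrial fatty acid oxidation, fell there by 0.78 (0.000444) and 0.40 (0.00137), and CYB5R3, the reductase that feeds electrons to the desaturases, rose by 1.01 (0.000142). These 3 calls were lost with brightness as a covariate (0.165, 0.0666 and 0.068), where the log2 changes were -0.56, -0.41 and 0.84. In GM15510 HADHB rose at 10 cGy by 0.33 (adjusted p = 0.0123). That rise was lost with median scaling (0.143) and with the ACTB ratio as a covariate (0.0567). It was also lost without replicate 1 or 2 at 1 cGy or replicate 2 at 10 cGy (0.0545 to 0.0941). LBR, a sterol reductase of the nuclear envelope, rose in GM15510 from 1411, 1457 and 1119 at 1 cGy to 2015, 2266 and 2148 at 10 cGy (0.70, adjusted p = 0.00298; 0.143 with the ACTB ratio as a covariate).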

How the data were processed

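RNA of 2 lymphoblastoid lines was measured on 30 Affymetrix arrays. The authors deposited 1 signal intensity per probe set and array, made with MAS5 per the submitters' processing notes; its version and scaling are not given in the sources used here. Probe sets were named from the platform annotation, where 19071 of 22283 have 1 symbol, 1043 several and 2169 none, and 19059 matched a RefSeq gene by gene ID. Because trimmed means (2 to 98 percent) differed by over 1.2 times, all arrays were brought to their average by a factor per array before log2(scaled signal + 4) was taken. The 40% dimmest probe sets by mean and the 68 control probe sets were left out. A linear model of the 10 groups was fitted with limma 3.58.1 in R 4.3.3 (eBayes with an intensity trend, two-sided, Benjamini-Hochberg over 13329 probe sets, threshold 0.05), with 20 residual and 12.3 prior degrees of freedom; the script was tested on simulated data. All 30 arrays entered every main comparison. Precision is limited by the number of arrays.

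The members and gene lists were chosen with earlier results of these data known. Members were described in full where a probe set was called in any comparison, and up to 6 companion genes with the smallest adjusted p in a dose comparison were named. Where a gene has several tested probe sets, the brightest stands for it in counts and medians of lists, with _x_at and _s_at ones used only for lack of others. For each tested member gene this was its brightest probe set. The alternatives were quantile normalization, median scaling, pseudocounts of 1 and 16, no filter, the replicate label as a block, array weights, removal of the 5 dimmest arrays, log2 brightness or the log2 ACTB 3-prime to 5-prime ratio as a covariate, each line fitted alone, and removal of each array. Arrays of a group correlated at 0.901 to 0.972 and 0 pairs were identical. Deviations from the group means of arrays with the same replicate label correlated at -0.0556 to 0.0408 in GM15036 and -0.0613 to 0.0971 in GM15510. Those of arrays with different labels correlated at -0.0301 to 0.056 and -0.0824 to 0.0695. No pairing by label was seen, though with 3 arrays a group this cannot exclude one, and the main fit used none.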

Additional observations from a re-analysis of the deposited data

Results flagged for a closer look

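The dose response of 16 member probe sets (37.2%, against 20.5% of all tested probe sets) differed between the lines in the interaction test of limma. Of these, 8 also differed in slope (18.6% of members, against 10.8% of all tested probe sets). The differences between these shares were not tested. The values that set them apart are the adjusted p of the interaction and, where called, the slope of GM15510 minus that of GM15036 in log2 units per cGy. Among the early steps these were FDPS (adjusted p = 4.86e-05, slope difference 0.0785), PMVK (0.000237), ACAT2 (0.0175, slope difference 0.123) and both IDI1 probe sets (0.0274 for 204615_x_at, and 0.0175 with a slope difference of 0.0483 for 208881_x_at, the latter called in 10 of the 30 fits that left out 1 array and lost under 4 alternatives). Among the late steps they were SQLE (1.84e-05, slope difference 0.0870), SC5D (0.000135), MSMO1 (0.0414, slope difference 0.0463) and 2 EBP probe sets (0.00596 for 202735_at, and 0.000125 with a slope difference of 0.0794 for 213789_at). Of the sensing genes, 2 INSIG1 probe sets (0.0297 for 201625_s_at and 0.0102 for 201626_at) and SCAP (0.0294) differed. Of the fatty acid genes, ELOVL5 (0.00024, slope difference 0.0569), ACLY (0.00392, slope difference 0.0621) and FADS2 (0.0469) differed. The brightness of the arrays also followed dose differently in the lines, from 69.6 at 1 cGy to 22.1 at 10 cGy in GM15036 and from 69.4 to 89.1 in GM15510. With log2 brightness as a covariate, 10 of 43 member probe sets were called in the interaction test. The share of all tested probe sets called in that fit is not given here.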

How the results depend on the processing

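Of 83 member calls over all comparisons, 29 kept their call under every alternative, 56 without each single array and 27 under both. In direction 0 reversed, but the interaction test has no direction, so its 16 calls could not count as reversed. Scaling to a common median moved the median change of all tested probe sets to -0.23 in GM15036 at 10 cGy, -0.31 in GM15510 at 2.5 cGy and -0.19 in GM15510 at 5 cGy, where 1 of 11, 2 of 13 and 2 of 4 called member probe sets were then higher. Member counts were as follows. In GM15036 at 2.5 cGy the count of 1 became 0 under quantile normalization, no filter, brightness and ACTB covariates and 2 with array weights; at 5 cGy it became 1 and at 7.5 cGy 5 with array weights. At 10 cGy the 7 became 11 with median scaling, 2 without the 5 dimmest arrays and 2 with brightness. In GM15510 at 2.5 cGy the 9 became 5 without the dimmest arrays and 1 with brightness. At 7.5 cGy the 2 became 1 under quantile normalization, 0 with median scaling and 1 with the line alone; at 10 cGy the 7 became 4, 3 and 4 with median scaling, the ACTB covariate and the line alone. The slope count of GM15036 (8) became 2 without the dimmest arrays and 2 with brightness, and 12, all falling, with median scaling; that of GM15510 (2) became 5, 4 and 1 with median scaling, array weights and the line alone. The slope difference (8) became 14, 4 and 3 with median scaling, without the dimmest arrays and with brightness, and the interaction (16) became 10 with brightness. The cause of these shifts was not tested. Shares of all tested probe sets called under each alternative are not given here. The member counts thus do not show whether members shifted more than other probe sets. Of 16 dose calls lost with brightness as a covariate, 11 kept a change within 1.5 times of the main value or larger, as did 7 of 10 lost without the dimmest arrays and 5 of 9 lost with median scaling. Leaving out each array gave 0 to 1, 0 to 0, 2 to 4 and 5 to 8 in GM15036 from 2.5 to 10 cGy, 6 to 10, 3 to 5, 1 to 3 and 3 to 7 in GM15510, 5 to 9 and 1 to 3 for the slopes, 7 to 10 for the slope difference, 16 to 18 for the line difference and 13 to 18 for the interaction. With the replicate block, GM15036 at 10 cGy gave 6 and the line difference 17. With 3 arrays a group and brightness that follows dose, a change of a probe set and a change in brightness cannot be fully told apart here. This limit is not confined to dim probe sets. The change of SQLE (209218_at) in GM15036 at 10 cGy went from -0.60 to -0.09 without the 5 dimmest arrays. That of EBP (202735_at) in GM15510 at 2.5 cGy went from 0.58 to 0.22 with brightness as a covariate. The FDPS change in GM15510 at 10 cGy kept its call under every alternative.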
